A study of Mus musculus with 9 samples.

Results

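Pre-mRNA splicing factors are described here in the fetal mouse brain after EtOH exposure, as the 51 genes named Srsf, Hnrnp, Snrp, Sf3a, Sf3b or U2af followed by their member symbols, out of 27095 loci in the deposited table. The imprinted Snrpn was left out, and the rule that picks the members uses names and no measured value. They fall into 5 classes: 11 SR genes, 18 hnRNP genes, 11 snRNP genes, 8 SF3 genes and 3 U2AF genes. All 51 passed the filter used throughout, a mean of at least 1 FPKM over the 3 groups and a value above 0 in each, as did 15455 loci in all.

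Dams of the C57BL/6 strain (C57BL/6J in the methods of the study) received EtOH at 2.9 g/kg on gestational day 7, and the controls received lactated Ringer's solution. RNA was taken on gestational day 17 from wild type fetuses, labelled as brain, for which the methods of the study give the cortex. The 3 groups were Control, Ethanol Unaffected, meaning exposed fetuses without visible defects, and Ethanol Affected, meaning exposed fetuses with craniofacial or ocular defects, with 3 animals in each. The exposed groups were therefore divided after exposure, by the outcome of the animal. Litter and sex of the sequenced fetuses are not given in the sources used here.

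The spliceosome removes introns in a series of assembly steps. Each of its small nuclear RNAs carries a ring of proteins and further proteins of its own. The ring is made of Sm proteins (Snrpb, Snrpd1, Snrpd2, Snrpd3, Snrpe, Snrpf and Snrpg), except on U6 and U6atac. U2AF and the SF3A and SF3B complexes mark the 3′ splice site and the branch point. SR and hnRNP proteins bind exons and introns and raise or lower the use of nearby sites. Splicing factor genes are used in every cell, and alternative splicing is extensive in the developing cortex.

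Each value below is the authors' FPKM for a group, fragments scaled to transcript length and sequencing yield, so levels of different genes are compared per length. The table held 1 value per locus and group and none for single animals, so no SD or interval can be given. The authors' own comparisons in the same table were not used and no test was run here, so every difference below is a description of these 3 group values. The number of fragments behind a value is unknown. A gene is counted as higher or lower past the fold where one group's value exceeds the other's by at least 25% in that direction (0.32 on the log2 scale). The 3 comparisons share groups pairwise, so their values are set side by side and are not independent of each other. In bulk tissue, fewer cells of a type and less RNA per cell cannot be told apart.

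Promoter sequences are shown so that genes lower and genes higher in Affected fetuses can be set side by side for shared letters. RefSeq promoters on GRCm38.p6, the build of the table (mm10), were found for 45 of the 51 genes. Below are the 100 bases before the RefSeq start, 5′ to 3′ on the strand of the gene, with capitals marking the letters CGGAAG or their reverse complement, the core bound by ETS family factors. The first 4 genes were lower and the last 2 higher past the fold in Affected than in Unaffected fetuses, and all 6 were picked because the letters lie in this window. Snrpg, the gene with the lowest ratio, has them only farther upstream.
Snrpd2, chr7:19149738-19149837, plus strand: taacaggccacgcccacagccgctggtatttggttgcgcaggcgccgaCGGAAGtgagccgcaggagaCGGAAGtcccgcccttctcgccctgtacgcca
Snrpe, chr1:133610281-133610380, minus strand: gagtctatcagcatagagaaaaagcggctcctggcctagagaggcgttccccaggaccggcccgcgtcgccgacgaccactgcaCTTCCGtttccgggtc
Snrpc, chr17:27839987-27840086, plus strand: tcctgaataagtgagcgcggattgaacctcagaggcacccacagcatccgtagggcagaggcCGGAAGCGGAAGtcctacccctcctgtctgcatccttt
Snrpb2, chr2:143062969-143063068, plus strand: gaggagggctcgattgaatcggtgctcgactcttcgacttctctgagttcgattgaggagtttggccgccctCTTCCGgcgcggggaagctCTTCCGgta
Sf3a2, chr10:80798635-80798734, plus strand: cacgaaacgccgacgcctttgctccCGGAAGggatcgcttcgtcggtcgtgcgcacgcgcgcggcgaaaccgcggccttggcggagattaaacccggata
Hnrnpd, chr5:99978939-99979038, minus strand: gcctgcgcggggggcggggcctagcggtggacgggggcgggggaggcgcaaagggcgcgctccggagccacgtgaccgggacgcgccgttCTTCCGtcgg
In the 250 bases before the start, on both strands, CGGAAG was present in 24 of the 45 members, against 25.6% of the 9397 expressed genes with a promoter. It was present in 7 of 9 snRNP genes and 6 of 6 SF3 genes, classes whose levels stood on opposite sides, in 5 of 11 SR genes and in 5 of 17 hnRNP genes. CCAAT, the letters bound by NF-Y, was present in 36.8% of all, in 12 of 17 hnRNP, 3 of 11 SR, 3 of 9 snRNP and 2 of 6 SF3 genes. GGGCGG, the GC box, was present in 61.3% of all, in 10 of 11 SR, 12 of 17 hnRNP, 5 of 9 snRNP and 3 of 6 SF3 genes. The other motifs were rare: TATAAA was present in 5 of the 45 members (5.84% of all), CGCGAGA in 4 (4.71%), CACGTG in 3 (8.55%), GCATGCGC in 2 (4.75%), TGACGTCA in 2 (2.84%) and AAGATGGC in 1 (2.14%). Overlapping letters of different motifs were counted for each. The 9 motifs searched were chosen after the promoters had been looked at, and a match is a description of the letters, not a binding site.

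Splicing factor genes were among the most abundant transcripts. Their median level was 125 FPKM, against 8.35 FPKM over all loci that passed the filter, and 35 of 51 were among the 1545 loci with the highest mean FPKM. Snrpd2 had the highest mean level of the 51, followed by Hnrnpk, which binds C-rich RNA and DNA. Srsf12, at 7.70 FPKM in Control, 6.85 in Unaffected and 6.63 in Affected, had the lowest, and no member was under 1 FPKM.

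**Figure D1:**
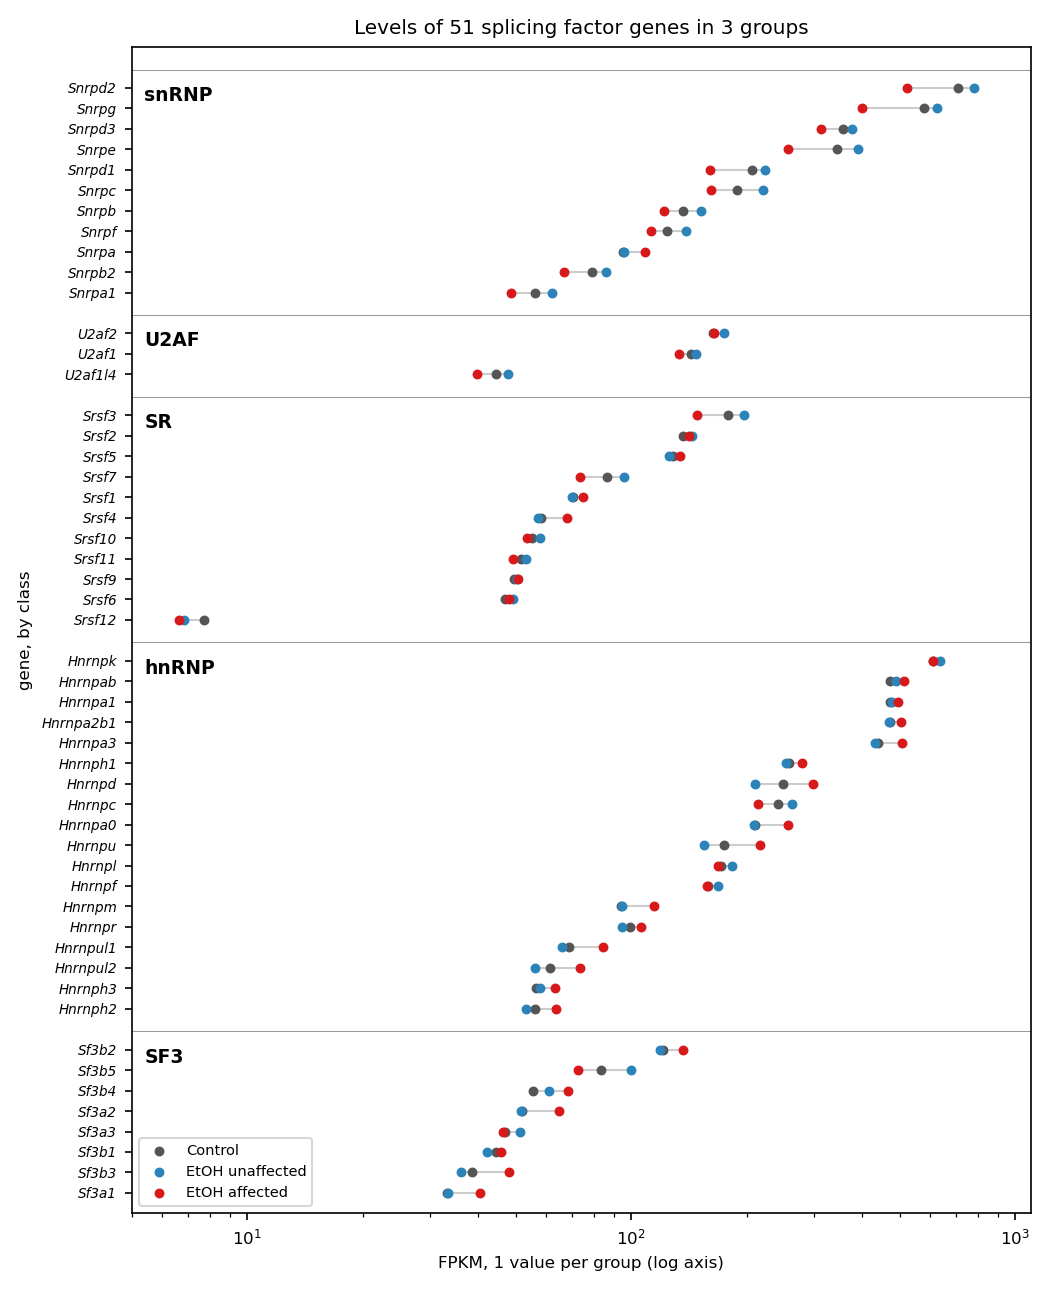
Level of each of the 51 genes in FPKM on a log axis, 1 point per group (the authors' group value, no error available), genes ordered by mean level within class. The Affected point is the leftmost for 10 of 11 snRNP genes and the rightmost for 14 of 18 hnRNP genes.

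Over all 51 genes the counts were small. In Affected against Control, 1 gene was higher past the fold and 4 were lower, where 12.6% of all loci were higher and 11.5% lower. In Affected against Unaffected, 6 were higher and 10 lower, where the shares of all loci were 20.7% and 18.5%. In Unaffected against Control none of the 51 passed the fold in either direction, where 5.53% of all loci were higher and 6.99% lower. The medians over the 51 genes were 0.03, -0.02 and 0.05 on the log2 scale, and those over all loci 0.02, 0.01 and 0.01. Among the 7049 loci of at least 10 FPKM, which are nearer to these genes in level, 7.87% were higher and 10.9% lower in Affected than in Control. Of the 51 genes, 1.96% were higher and 7.84% lower past the fold than Control, and 11.8% higher and 19.6% lower than Unaffected, shares near or under those of all loci, and the classes are described one by one.

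The snRNP class had the lowest median of the 5 in both comparisons with Affected fetuses. Its median log2 ratio was -0.22 against Control and -0.37 against Unaffected, with 10 of 11 genes below 0 in each, where 47.0% and 48.8% of all loci were below 0. With loci of like transcript length subtracted, as described further on, these medians were -0.13 and -0.16.

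Snrpg, the smallest protein of the Sm ring, had 578 FPKM in Control, 627 in Unaffected and 399 in Affected, the widest relative difference of the 51 genes (log2 ratio -0.54 against Control and -0.65 against Unaffected). Snrpd2 had 711, 782 and 524 FPKM in the same order of groups, with log2 ratios of -0.44 and -0.58. Snrpe, which forms a subcomplex with Snrpf and Snrpg before the ring closes, had 344, 390 and 256 FPKM, with log2 ratios of -0.43 and -0.61. These 3 genes had their lowest value in Affected and their highest in Unaffected fetuses. Snrpd1, the partner of Snrpd2 in the ring, had 206, 224 and 160 FPKM, with log2 ratios of -0.36 and -0.48. The remaining Sm genes kept the same order with smaller differences. Snrpd3 had 357, 375 and 312 FPKM, a log2 ratio of -0.20 against Control. Snrpb, which encodes SmB and SmB′, had 136, 152 and 122 FPKM, a log2 ratio of -0.17. Snrpf had 124, 139 and 113 FPKM, a log2 ratio of -0.14, and its locus in the table spans the neighbouring Ccdc38.

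All 7 Sm genes were thus lowest in Affected and highest in Unaffected fetuses, an order held by 22 of the 51 genes and by 31.1% of all loci. Their median log2 ratio was -0.36 against Control, -0.48 against Unaffected, and 0.14 for Unaffected against Control. The genes encode single copies of one ring, but their levels in Control spanned 5.73-fold, from Snrpf to Snrpd2, and 4.64-fold in Affected. The 4 most displaced in Affected against Control were Snrpg, Snrpd2, Snrpe and Snrpd1, the same 4 that passed the fold in each comparison with Affected. With loci of like transcript length subtracted, Snrpe (-0.29) and Snrpd1 (-0.22) were inside the fold against Control, and Snrpd1 (-0.24) also against Unaffected. Snrpd3, with a level in Control between those of Snrpg and Snrpe, was not among them.

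The 4 snRNP genes outside the ring were not of one direction. Snrpc, the U1-C protein that steadies the pairing of U1 with the 5′ splice site, had 188 FPKM in Control, 220 in Unaffected and 162 in Affected, with log2 ratios of -0.22 against Control and -0.44 against Unaffected. Snrpa1 (U2-A′) had 56.1, 62.0 and 48.7 FPKM, and Snrpb2 (U2-B″), its partner on the U2 RNA, had 79.1, 86.1 and 66.8. Snrpa, the U1-A protein and the close relative of Snrpb2, was the exception, with 95.4 FPKM in Control, 95.7 in Unaffected and 109 in Affected, a log2 ratio of 0.19 in both comparisons. Its values in Control and Unaffected fetuses were nearly equal.

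**Figure D2:**
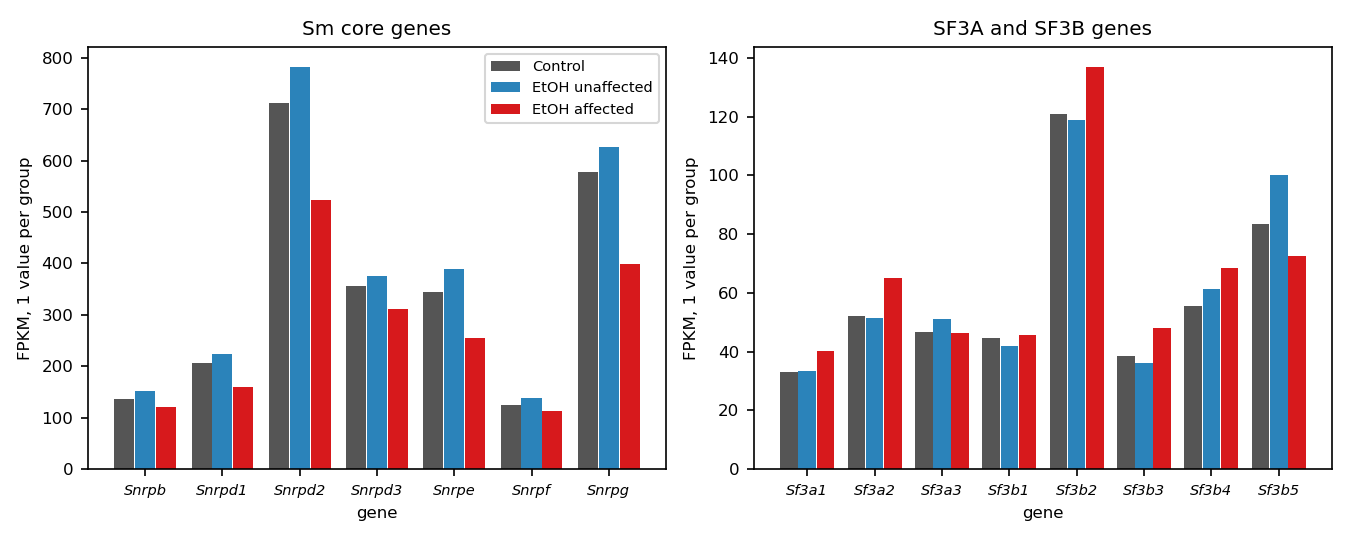
Group FPKM (1 value per group, no error available) of the 7 Sm ring genes and of the 8 genes of the SF3A and SF3B complexes, on axes that start at 0. All 7 Sm genes have their lowest bar in Affected, and 6 of 8 SF3 genes have their highest bar there.

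The SF3A and SF3B complexes, parts of the U2 snRNP, had median log2 ratios of 0.23 in Affected against Control and 0.18 against Unaffected, with 6 of 8 genes above 0 in each. Sf3b3, a large scaffold subunit of SF3B, had 38.4 FPKM in Control, 36.0 in Unaffected and 48.1 in Affected, and was the one gene of the 51 to be higher than Control past the fold (log2 ratio 0.32 against Control and 0.42 against Unaffected). Its ratio against Control lay at the threshold, and it was inside the fold with a pseudocount of 1, with ratios centred on the median of all loci, or with loci of like transcript length subtracted (0.15). Sf3a2, a subunit that holds SF3A to U2, had 52.1, 51.6 and 64.9 FPKM, with log2 ratios of 0.32 and 0.33. Sf3b4, an RNA-binding subunit that contacts the pre-mRNA near the branch point, had 55.4, 61.2 and 68.4 FPKM, with log2 ratios of 0.31 and 0.16. In these 3 genes the Affected value was above both others. Sf3a1 had 33.2, 33.3 and 40.3 FPKM (log2 ratio 0.28 in both comparisons). Sf3b2, the highest of the class, had 121, 119 and 137 FPKM, with log2 ratios of 0.18 and 0.21. Sf3b1, the subunit that cradles the branch point adenosine, differed little, at 44.6, 42.0 and 45.8 FPKM, and Sf3a3 had 46.8, 51.2 and 46.5. Sf3b5, a very small subunit, went the other way, with 83.4 FPKM in Control, 100.025 in Unaffected and 72.7 in Affected, and was lower than Unaffected past the fold (log2 ratio -0.46).

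U2AF reads the polypyrimidine tract and the AG at the end of the intron. U2af2, its large subunit, had 164 FPKM in Control, 174 in Unaffected and 164 in Affected, on a locus joined with Ccdc106. U2af1, the small subunit, had 143, 148 and 133 FPKM, and the related U2af1l4 had 44.5, 47.9 and 39.6. None passed the fold, and all 3 were highest in Unaffected fetuses.

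SR proteins bind exonic enhancers and recruit U1 and U2AF. As a class they were centred near 0, with median log2 ratios of 0.03 in Affected against Control and -0.04 against Unaffected, and none of the 11 passed the fold against Control. Srsf3, the highest of them and the smallest in protein size among the classical SR proteins, had 178 FPKM in Control, 196 in Unaffected and 149 in Affected, with log2 ratios of -0.26 and -0.40. Srsf7, which is close to Srsf3 in sequence and carries a zinc knuckle, had 86.8, 95.7 and 73.5 FPKM, with log2 ratios of -0.24 and -0.38. Both were lowest in Affected and both passed the fold against Unaffected, as no other SR gene did, which is 18.2% of the class where 18.5% of all loci were lower. With loci of like transcript length subtracted, Srsf7 came to -0.27, inside the fold, and Srsf3 to -0.42. Srsf2 had 137, 144 and 141 FPKM and Srsf5 had 128, 126 and 134, so their groups were close. Srsf4 had the highest ratio of the class, with 58.4, 57.0 and 68.1 FPKM and a log2 ratio of 0.22 against Control. The other SR genes, Srsf1, Srsf6, Srsf9, Srsf10 and Srsf11, lay between a log2 ratio of -0.07 (Srsf11) and 0.09 (Srsf1) against Control.

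The hnRNP proteins coat nascent transcripts and often silence splice sites. In Affected fetuses 14 of 18 genes had a higher level than in Control, with a median log2 ratio of 0.14, and the median against Unaffected was 0.15. None passed the fold against Control and 4 did against Unaffected, all higher, which is 22.2% of the class where 20.7% of all loci were higher. Hnrnpd (AUF1), which also binds AU-rich elements and governs mRNA decay, had 248 FPKM in Control, 210 in Unaffected and 297 in Affected, the largest positive log2 ratio against Unaffected of the 51 genes (0.50, with 0.26 against Control). Hnrnpu, a chromatin-associated scaffold protein that also binds pre-mRNA, had 175, 155 and 216 FPKM, with log2 ratios of 0.31 and 0.48. Its relatives Hnrnpul1, with 68.9, 66.0 and 84.4 FPKM, and Hnrnpul2, with 61.6, 56.2 and 73.7 FPKM on a locus joined with Bscl2, had log2 ratios of 0.35 and 0.39 against Unaffected. In these 4 genes the order of the groups was Affected, Control, Unaffected, the reverse of the order in the Sm ring, and 10 of 18 hnRNP genes had it, against 32.3% of all loci. With loci of like transcript length subtracted, Hnrnpd (0.61) stayed past the fold against Unaffected, and Hnrnpu (0.07), Hnrnpul1 (0.23) and Hnrnpul2 (0.15) did not.

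Of the most abundant hnRNP genes, Hnrnpk had 612 FPKM in Control, 636 in Unaffected and 612 in Affected. Hnrnpab had 473, 490 and 514 FPKM, and Hnrnpa1 had 473, 479 and 496. In these 3 genes the groups were close, while Hnrnpa3 had 440, 431 and 508 FPKM, with log2 ratios of 0.21 and 0.24, above the class medians. The loci of Hnrnpa1 and Hnrnpa3 carry a second name each, Gm5643 and Gm6793, transcribed pseudogenes, so reads of the copies may be counted with the gene or lost from it. Hnrnpc, which binds uridine tracts, was the hnRNP gene with the lowest ratio, at 241, 263 and 214 FPKM and a log2 ratio of -0.17 against Control and -0.30 against Unaffected.

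**Figure D3:**
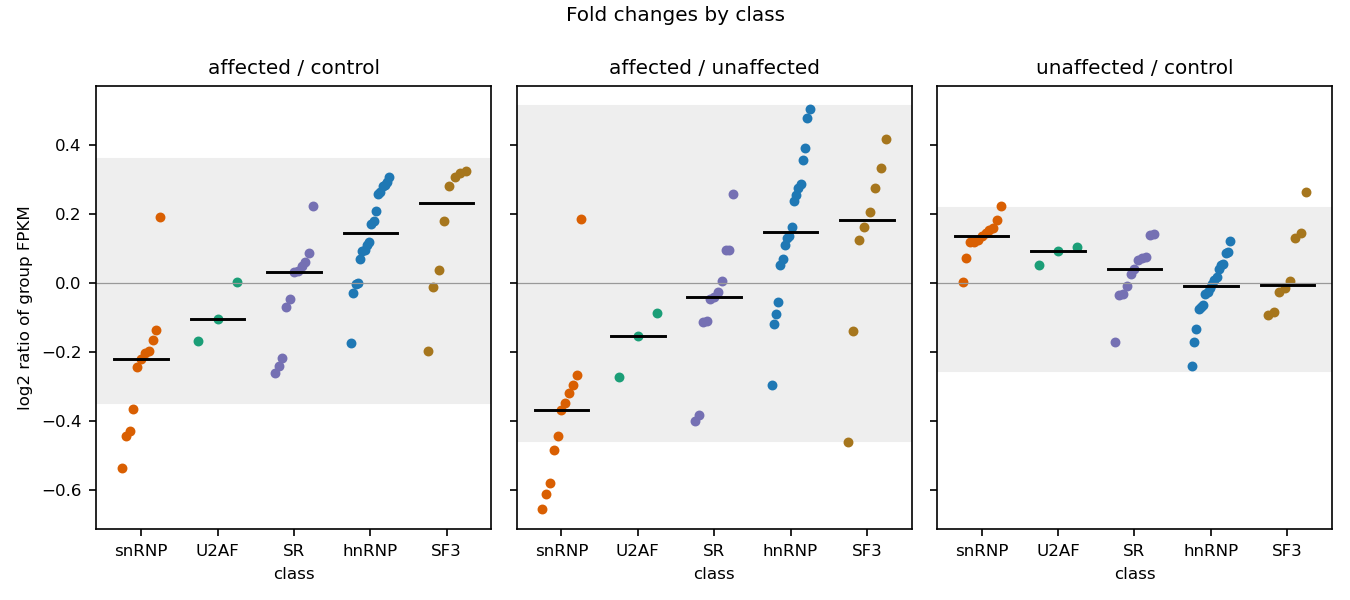
Log2 ratio of group FPKM for each of the 51 genes by class in the 3 comparisons; black lines are class medians and the grey band holds the 10th to 90th percentile of all 15455 loci. In Affected against Control 4 snRNP genes lie below the band, which runs from -0.35 to 0.36, and no gene lies above it.

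Transcript length moved with these differences. Over 11830 loci with a length from GENCODE M21, the rank correlation of length with the log2 ratio was 0.46 for Affected against Control, 0.52 against Unaffected and -0.43 for Unaffected against Control, and over the 51 genes it was 0.47, 0.51 and -0.46. These are correlations across genes of the same libraries, and genes are not replicates. The median log2 ratio of all loci in Affected against Control went from -0.14 for transcripts of up to 1000 nt to 0.24 for those above 6000 nt. The snRNP transcripts are short, with a median of 1161 nt, and the hnRNP transcripts longer, with a median of 2078 nt.

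With the median of loci of like length subtracted, the class medians of Affected against Control became -0.13 for snRNP, 0.13 for hnRNP, 0.13 for SF3, 0.00 for SR and -0.03 for U2AF. Against Unaffected they became -0.16, 0.15, 0.10, 0.06 and -0.03. The median of the Sm ring moved from -0.36 to -0.22 against Control and from -0.48 to -0.24 against Unaffected, with 6 of 7 and 7 of 7 genes below 0. After this subtraction 3 of the 51 genes were higher than Control past the fold and 2 lower, where 5.66% of the 11830 loci were higher and 6.64% lower. Against Unaffected 5 were higher and 5 lower (4 without Sf3b5), where the shares were 12.5% and 11.2%. Snrpg and Snrpd2 stayed past the fold against Control, at -0.42 and -0.33. Sf3a2, with a median annotated length of 781 nt, came to 0.46 against Control, Sf3b4 to 0.35 and Hnrnpm, an intron-binding hnRNP, to 0.33. Hnrnpu, with the longest transcript of the 51, came to 0.06. Against Unaffected, 4 of the 10 lower genes stayed past the fold, leaving Sf3b5 aside, Snrpg at -0.45, Srsf3 at -0.42, Snrpd2 at -0.38 and Snrpe at -0.37. Snrpd1 at -0.24, Srsf7 at -0.27, Snrpc at -0.20, Snrpb2 at -0.16 and Snrpa1 at -0.15 did not. Of the 6 higher genes, Hnrnpd and Sf3a2 (0.57) stayed past it and Sf3b3 (0.17) and the 3 hnRNP genes named above did not, while Hnrnpa3 at 0.44, Snrpa at 0.39 and Hnrnpm at 0.38 came past it. Lengths are medians over annotated coding transcripts, shorter variants included, and not the models used to count. Centred values, of single genes above all, therefore depend on which transcripts are annotated. The length of Sf3b5 (3841 nt) exceeds its locus in the table (chr10:13008450-13009183), so its centred value has no meaning. Without Sf3b5 the centred SF3 medians were 0.15 against Control and 0.17 against Unaffected. What lies behind the relation with length was not tested.

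**Figure D4:**
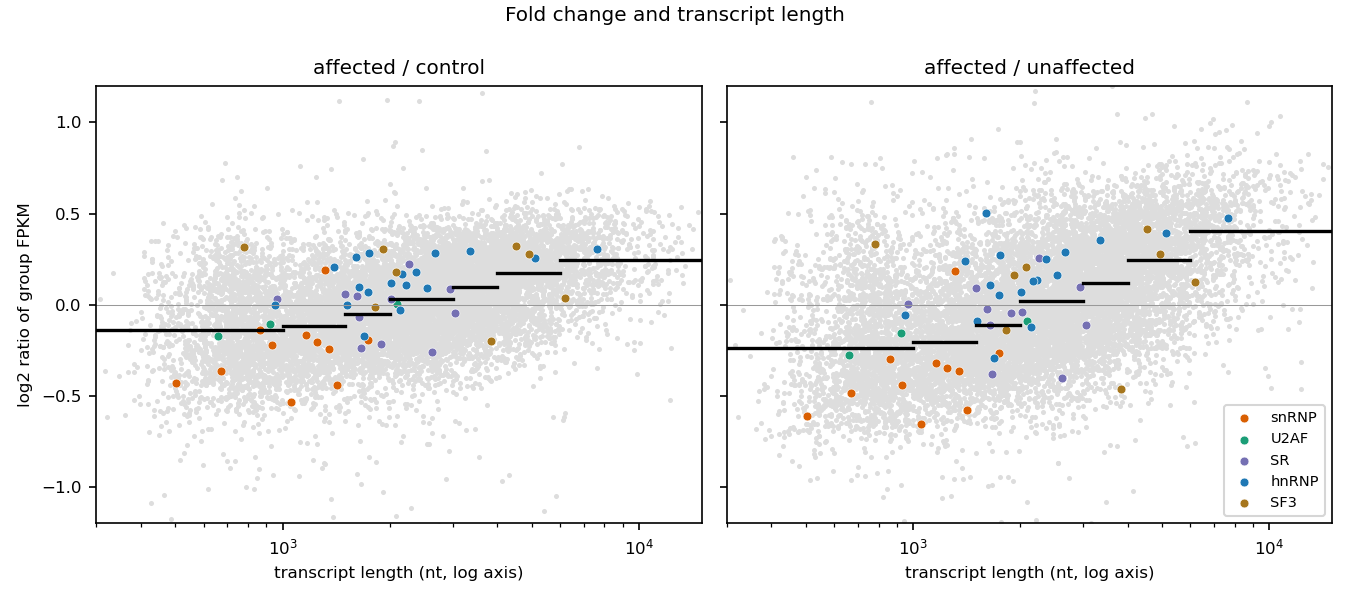
Log2 ratio of group FPKM against transcript length in nt on a log axis; grey points are 11830 loci, black lines the median of each length bin, coloured points the 51 genes by class. The medians go from -0.14 to 0.24 in Affected against Control, the Sm and other snRNP genes lie at the short end, and 20 and 16 loci outside the axis limits are not drawn.

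Other genes of the pathway were taken as lists, and each count is over the members found under the listed name that passed the filter (9 of 10 LSm genes, 18 of 20 other U snRNP proteins, 22 of 23 SR kinases and SR-related proteins, 42 of 45 tissue-specific regulators, and all genes of the remaining lists). The U snRNP names not found were Sf3b6 and Sf3b14. Sf3b6 stands under the name 0610009D07Rik, was lower past the fold than Control (-0.39) and Unaffected (-0.56), and is not in the counts of its list. Over all loci, 12.6% were higher and 11.5% lower than Control, and 20.7% and 18.5% than Unaffected. The LSm genes, whose proteins form the related ring of U6 and of mRNA decay, resembled the Sm ring in direction. Past the fold, 4 of 9 were lower than Control and 6 of 9 lower than Unaffected, and none was higher. Their medians were -0.30 and -0.45, and -0.20 and -0.26 with loci of like length subtracted. After that subtraction 2 of 9 (22.2%) were lower past the fold than Control and 3 of 9 (33.3%) than Unaffected, where 6.64% and 11.2% of loci were. Lsm7 had 187 FPKM in Control, 197 in Unaffected and 131 in Affected, and Lsm3 had 140, 148 and 109. Lsm2, with 41.8, 48.4 and 42.4 FPKM, and Lsm11, an LSm protein of the U7 particle, with 7.45, 7.32 and 7.55 FPKM, were not lower than Control. With loci of like length subtracted, Lsm2 came to 0.16 against Control and 0.05 against Unaffected. Lsm11 then came to -0.23 against Control and -0.36 against Unaffected, the latter past the fold. The SMN complex, which loads Sm proteins onto the RNA, had 0 of 12 genes past the fold against Control and 3 of 12 lower against Unaffected. The list also holds Prmt5, Wdr77 and Clns1a, which modify and bring Sm proteins to the complex. Of the 3 lower genes, Gemin2, which holds Sm proteins before loading, had 5.92, 7.34 and 4.97 FPKM. After length subtraction, 3 of 12 (25%) were again lower against Unaffected, where 11.2% of loci were, but with other genes among them. These were Gemin2 (-0.45), Gemin4 (-0.42) and Strap (-0.33), while Gemin6 (-0.19) and Clns1a (-0.28) were inside the fold.

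The list of U snRNP proteins outside the 51 genes was mixed, with 4 of 18 higher (22.2%) and 1 lower than Control past the fold, and 4 higher and 2 lower than Unaffected. Snrnp200, the Brr2 helicase that unwinds U4 from U6, had 19.5 FPKM in Control, 15.4 in Unaffected and 28.1 in Affected, and Prpf8, the scaffold at the catalytic centre, had 43.1, 36.7 and 56.9. Snrnp25, of the minor spliceosome, went the other way, with 23.7, 28.6 and 18.4 FPKM. With loci of like length subtracted, 1 of the 18 was higher (5.56%) and 0 lower than Control past the fold, where 5.66% and 6.64% of loci were. Snrnp200 came to 0.28 and Prpf8 to 0.16. Against Unaffected 4 were higher (22.2%) and 2 lower (11.1%), where 12.5% and 11.2% of loci were, but with other genes among them. Snrnp70 (0.51, median annotated length 618 nt), Ddx23 (0.40) and Prpf31 (-0.34) came past the fold. Prpf8 (0.23), Sart3 (0.27) and Snrnp27 (-0.22) came inside it. The Prp19-associated factors and helicases had 3 of 27 higher (11.1%) and 2 lower than Control, and 4 higher (14.8%) and 2 lower than Unaffected. The list of exon junction complex and nonsense-mediated decay genes had 2 of 9 higher and 1 lower than Control, and 4 higher (44.4%) and 1 lower than Unaffected. The 2 higher than Control were Upf1 and Upf2, both decay factors, with log2 ratios of 0.37 and 0.41, and the 1 lower was Magoh, a core protein of the junction complex, at -0.35. After that subtraction neither list had a gene past the fold against Control. Against Unaffected the Prp19 list had 5 of 27 higher (18.5%) and 2 lower (7.41%). The exon junction and decay list had 3 of 9 higher (33.3%) and 0 lower. The shares of all loci with a length were 12.5% higher and 11.2% lower.

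Among regulators of tissue-specific splicing, 32 of 42 had a log2 ratio above 0 in Affected against Control, with 6 higher past the fold (14.3%) and none lower, and 11 were higher (26.2%) and 1 lower against Unaffected. The shares higher were thus near those of all loci, and the shares lower were under them. Their median log2 ratios were 0.17 and 0.21. Nova2, a neuronal regulator of cortical splicing, had 26.1 FPKM in Control, 20.9 in Unaffected and 34.9 in Affected, and Celf2 had 60.7, 50.9 and 81.2. Rbfox1, which binds GCAUG in neurons, had 36.6, 29.3 and 45.2 FPKM, and Ptbp1, which holds back neuronal exons in progenitors, had 36.4, 38.5 and 46.5. Other members went the opposite way. Rbm4, the 1 gene lower past the fold, had 15.2, 17.4 and 13.3 FPKM, and Tia1, which binds U-rich intron starts, had 21.2, 22.7 and 18.3. With loci of like length subtracted, 9 regulators (21.4%) were higher than Control past the fold and 0 lower, where 5.66% and 6.64% of loci were, and Nova2 came to 0.17 and Ptbp1 to 0.47. Against Unaffected, 16 (38.1%) were then higher and 1 lower, where 12.5% and 11.2% of loci were, and Rbm4 was inside the fold at -0.18 and Tia1 past it at -0.43. Median annotated lengths were short for some regulators, at 765 nt for Rbm25, 923 for Tardbp and 817.5 for Pcbp2. Only after the subtraction was Rbm25 past the fold against Control (0.39), and Tardbp (0.41) and Pcbp2 (0.34) against Unaffected. These counts depend on such lengths. Kinases of SR proteins and SR-related proteins had 3 of 22 higher (13.6%, near the share of all loci) and 1 lower than Control, and 6 higher (27.3%) and 1 lower than Unaffected. In that list Srrm4, which drives neuronal microexons, had 11.9, 9.82 and 16.4 FPKM, and Clk1, an SR protein kinase, had 19.5, 19.4 and 15.4. With loci of like length subtracted, 0 of the 22 passed the fold against Control, where Srrm4 came to 0.29 and Clk1 to -0.29. Against Unaffected 5 were then higher (22.7%) and 0 lower, and Srrm4 came to 0.50. Of the 5, Srpk2 (0.36, median annotated length 653 nt) was inside the fold before the subtraction.

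**Figure D5:**
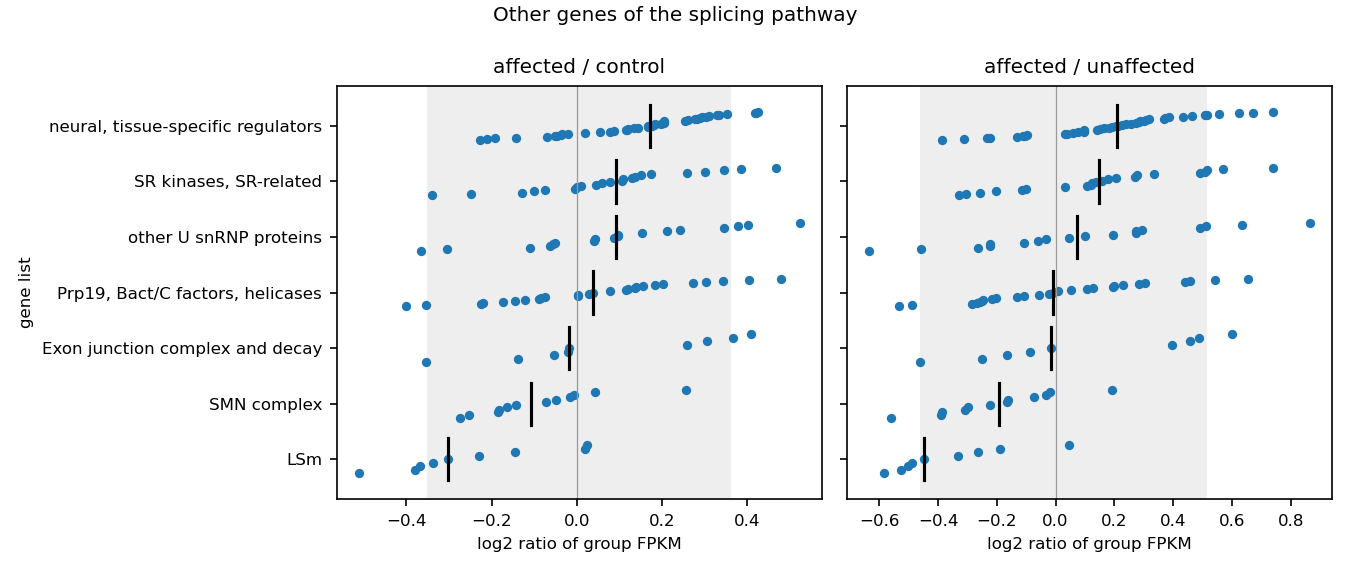
Log2 ratio of group FPKM for the genes of 7 further lists of the splicing pathway; each point is a gene, black lines are list medians and the grey band holds the 10th to 90th percentile of all loci. The LSm genes have the lowest medians, -0.30 and -0.45, and the tissue-specific regulators the highest, 0.17 and 0.21.

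Markers of cell types in the tissue also differed between the groups, but not all in the same order. Projection neuron markers, all 7 of which were above 1 FPKM, summed to 754 FPKM in Control, 664 in Unaffected and 852 in Affected, and without Neurod6, the highest of them, to 346, 286 and 436. Radial glia and intermediate progenitor markers, 7 of 7 detected, summed to 2406, 2558 and 1824 FPKM, but to 391, 406 and 472 FPKM without Fabp7, which alone had 2015, 2151 and 1352. Blood markers, found at 4 loci, summed to 456, 595 and 371 FPKM, and choroid plexus markers, 5 of 6 above 1 FPKM, to 988, 1312 and 1104, most of it Ttr, and without Ttr to 17.99, 21.5 and 26.9, highest in Affected. Interneuron markers summed to 163, 188 and 176 FPKM, thalamic markers to 33.1, 38.8 and 27.7 (11.4, 9.39 and 10.2 without Zic1), vascular and meningeal markers to 119, 115 and 112 and microglial markers to 46.5, 47.9 and 38.9. The part of these in the differences above was not tested.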

How the data were processed

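RNA of 9 fetal brain samples, 3 in each of 3 groups, was sequenced as 50 base paired-end reads from a library kit that does not mark strand, so genes overlapping on opposite strands share reads (10 of the 51 loci overlap another). The authors aligned reads to mm10 (their methods name STAR and TopHat with Bowtie, their processing notes Bowtie2 2.2.4.0, Cufflinks and Cuffdiff) and deposited 1 FPKM per locus and group. Further columns hold the authors' own comparisons (fold changes, p-values and q-values) and were not used; 0 columns hold single animals. Total counts per sample are not given in the sources used here, so depth and precision are unknown.

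From the FPKM, log2 ratios were taken with pseudocount 0 over the 15455 loci with a mean of at least 1 FPKM and a value above 0 in every group (Python 3.11.15, pandas 2.3.3). Transcript length was matched by name for 95.8% of 12354 loci with 1 known gene name and for 51 of 51 members. Computation was tested on simulated data. The members, lists and motifs were chosen with earlier results of these data known. Named were the 2 highest genes of each class, the 5 with the largest and lowest ratios in each comparison, all Sm, SF3 and U2AF genes, members on joined loci and members under 1 FPKM. Genes named beyond this rule (Snrpa, Snrpa1, Snrpb2, the SR genes other than Srsf2, Srsf3 and Srsf12, Hnrnpc, Hnrnpm and the genes of other lists) were chosen after their values were seen. Alternatives were the pseudocount, the filter, centring, joined loci left out, a 1.5-fold threshold and, added after seeing the data, centring on loci of like length and a wider set of symbols.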

Additional observations from a re-analysis of the deposited data

How the results depend on the processing

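The medians over the 51 genes moved by less than 0.1 on the log2 scale under each alternative run, but that of Affected against Unaffected changed sign, from -0.02 to 0.06, with loci of like length subtracted. Counts past the fold were less stable. In Affected against Control, the 1 higher gene became 0 with a pseudocount of 1, 0 with ratios centred on the median of all loci, 0 at a fold of 1.5, 3 with loci of like length subtracted and 2 with older symbols and Snrnp genes added. The 4 lower genes became 2 with loci of like length subtracted, 0 at a fold of 1.5 and 6 with the added symbols. In Affected against Unaffected, the 6 higher genes became 0 and the 10 lower genes became 2 at a fold of 1.5, and the 10 lower became 13 with the added symbols and 5 with loci of like length subtracted, or 4 without Sf3b5, whose length is not usable (3 higher and 2 lower against Control remained the counts without it). In Unaffected against Control, the 0 lower genes became 1 (Snrnp200) with the wider set of symbols. The length and symbol alternatives were added after seeing the data. No paired analysis was possible because the table holds no values of single animals, and leaving out each replicate could not be run for the same reason.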

Other observations

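Genes of the same families stand in the table under other names and were not among the 51. The locus 0610009D07Rik, a synonym of Sf3b6 in RefSeq, the SF3B subunit that contacts the branch point, had 134 FPKM in Control, 151 in Unaffected and 102 in Affected, a log2 ratio of -0.39 against Control, so that the small subunits Sf3b5 and Sf3b6 both had their lowest value in Affected. Hnrpdl, now called Hnrnpdl, had 153, 148 and 136 FPKM, and Hnrpll, now called Hnrnpll, had 46.1, 48.8 and 46.6. The imprinted locus of Snrpn and Snurf, whose Snrpn product is an Sm protein of neurons, had 244, 252 and 213 FPKM, the order of groups seen in the Sm ring. Snrnp27 had 88.5, 98.4 and 71.7 FPKM and Snrnp70, the U1-70K protein, had 127, 113 and 136.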
